A study of Mus musculus with 17 samples.

Results

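The Rhox genes are a family of homeobox transcription factor genes clustered on the mouse X chromosome and expressed mainly in reproductive tissues. The RNA levels of 8 of them (Rhox1, Rhox5, Rhox6, Rhox8, Rhox9, Rhox10, Rhox11 and Rhox13) were followed in male mice that lacked Pld6, Dnmt3l or both. These 8 were chosen by name, with earlier results of these data known, out of 31 Rhox genes that each of the 2 deposited tables lists. The 17 libraries were all made from polyadenylated RNA of mice labelled C57BL6/J. At postnatal 3 to 4 weeks, leptotene/zygotene (L/Z) spermatocytes, germ cells at the start of meiosis, were isolated by FACS, a sort of single cells on their fluorescence, from WT (2 libraries), Pld6 KO (2) and Dnmt3l KO (2) males. On postnatal day 0 (P0), whole testes were taken from WT (2 libraries), Pld6 KO (4), Dnmt3l KO (2) and double knockout (DKO, 3) males. The product of Pld6 sits on mitochondria and takes part in the biogenesis of PIWI-interacting RNAs, and DNMT3L is a catalytically inactive partner of the de novo DNA methyltransferases. All mutants are knockouts, so germ cells and somatic cells both carry the mutation. In both single mutants germ cells die in early meiosis, which limits the L/Z cells to those that had not yet been lost.

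Rhox genes are known as targets of DNA methylation: in embryos and in most somatic tissues their promoters are methylated and the genes are silent, and loss of the methyltransferases releases some of them. In the testis different members belong to different cells. Rhox8 and, from its proximal promoter, Rhox5 are Sertoli cell genes that respond to androgen, whereas Rhox10 and Rhox13 are germ cell genes, the former of prospermatogonia and spermatogonia and the latter of spermatogonia and spermatocytes.

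All 31 Rhox genes were placed on chromosome X of GRCm38.p6 (the mm10 assembly) by RefSeq, within 916 kb between positions 37213804 and 38129966. All are annotated as protein-coding. Rhox1 (37213804 to 37222258) opens the cluster and Rhox13 (38120840 to 38129966) closes it. Between them come tandem copies of Rhox2, Rhox3 and Rhox4, then Rhox5 (37754608 to 37808878), Rhox6 (37827055 to 37829857), Rhox8 (37874780 to 37890766), Rhox9 (37899097 to 37901770), Rhox10 (38066475 to 38071688) and Rhox11 (38076598 to 38085139).

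Because these genes are described as regulated by methylation, the 250 bases before the annotated start are given for 4 of the 8 genes. The same bases are given for Rhox3a, a tandem copy whose RNA was higher in the L/Z Dnmt3l KO libraries than in the WT libraries. They come from RefSeq on GRCm38.p6, each 5′ to 3′ on the strand of its gene, and each CpG, the dinucleotide CG that the methyltransferases modify, is in capitals. Promoters of 5 of the 8 genes were matched by symbol.
Rhox10: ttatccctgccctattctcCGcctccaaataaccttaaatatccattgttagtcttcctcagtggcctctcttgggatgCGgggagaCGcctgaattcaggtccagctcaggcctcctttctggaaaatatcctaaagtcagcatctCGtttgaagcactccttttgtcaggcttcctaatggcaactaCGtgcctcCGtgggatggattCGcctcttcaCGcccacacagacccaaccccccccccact
Rhox5: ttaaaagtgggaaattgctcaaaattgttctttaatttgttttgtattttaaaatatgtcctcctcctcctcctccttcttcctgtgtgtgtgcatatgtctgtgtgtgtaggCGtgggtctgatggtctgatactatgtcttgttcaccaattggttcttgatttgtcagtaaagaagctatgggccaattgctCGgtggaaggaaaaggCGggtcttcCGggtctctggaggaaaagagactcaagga
Rhox13: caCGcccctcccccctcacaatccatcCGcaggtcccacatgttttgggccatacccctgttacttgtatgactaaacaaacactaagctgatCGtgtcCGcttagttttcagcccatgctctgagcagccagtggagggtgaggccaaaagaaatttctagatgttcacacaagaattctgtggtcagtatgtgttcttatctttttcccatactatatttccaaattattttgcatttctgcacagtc
Rhox1: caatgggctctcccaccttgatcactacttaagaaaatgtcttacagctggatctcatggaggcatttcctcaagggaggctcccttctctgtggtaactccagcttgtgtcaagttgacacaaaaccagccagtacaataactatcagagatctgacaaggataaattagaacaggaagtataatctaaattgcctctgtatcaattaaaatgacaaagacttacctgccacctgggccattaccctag
Rhox3a: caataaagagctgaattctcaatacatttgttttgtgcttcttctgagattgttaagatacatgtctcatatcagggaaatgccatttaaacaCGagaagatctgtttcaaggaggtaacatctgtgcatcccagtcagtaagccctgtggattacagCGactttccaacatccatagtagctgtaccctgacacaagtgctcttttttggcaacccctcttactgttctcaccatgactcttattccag

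Rhox10 (chrX:38066225-38066474, + strand) had the most CpGs of the matched genes, 8, and 43.0% of all 32851 RefSeq promoters of this length held at least as many. The Rhox5 window (chrX:37754358-37754607, + strand) and the Rhox13 window (chrX:38120590-38120839, + strand) held 4 each, below the median of 6, and 62.2% of promoters held at least as many. Rhox11 had 5. The Rhox1 window (chrX:37222259-37222508, - strand) held 0, as did 7.87% of all promoters. The Rhox3a window (chrX:37249669-37249918, + strand) had 2 CpGs and was identical in all bases to that of Rhox3h (chrX:37668765-37669014, - strand). The first bases of the Rhox3a window lie within the annotated Rhox2a gene, which ends at 37249690. Which start Rhox3a used was not measured. For Rhox5 the window lies before the outermost annotated start, and which of its promoters was in use was not measured. Methylation of these sites was not analysed here.

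Depth ran from 5194238 fragments in 1 Dnmt3l KO library to 14578341 in the other at L/Z, and from 9900346 to 23498968 at P0. The knockouts were visible in their own genes. Pld6 had 344 and 352 fragments in the L/Z WT libraries and 0 in both Pld6 KO libraries, and Dnmt3l had 19 and 11 against 0 in both Dnmt3l KO libraries. At P0 no library held over 3 fragments of a gene it was labelled to lack. The 10 markers of L/Z spermatocytes were detected in all 6 L/Z libraries, with summed levels of 2296 to 8287 CPM (counts scaled to library size), but so were the 15 Sertoli markers (353.6 to 1056 CPM). In whole testes, fewer cells of a type and less RNA per cell cannot be told apart. In 2 L/Z libraries, WT replicate 1 and Pld6 KO replicate 1, the pre-ribosomal RNA gene Rn45s took 8.27% and 8.06% of fragments, against 0.134% to 0.301% in the other 4. At P0 this gene was listed at 0 with a failed status in the 4 Pld6 KO libraries, and took 4.43% in DKO replicate 1 and 0.104% to 0.981% in the other 6.

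The order of the genes differed between the tables. Levels of different genes are compared as FPKM, fragment counts scaled to transcript length and library size, as deposited. In L/Z spermatocytes Rhox13 stood highest, at 80.3 ± 35.1 FPKM in WT (SD, n = 2). A middle group followed, with Rhox10 at 11.8 ± 1.26, Rhox5 at 11.2 ± 0.0211, Rhox1 at 10.1 ± 2.22 and Rhox8 at 9.59 ± 0.732 FPKM. The 2 WT libraries of Rhox10, Rhox1 and Rhox5 overlapped, as did those of Rhox1 and Rhox8, so the order within this group is not resolved. Rhox6 (1.15 ± 0.543), Rhox11 (1.12 ± 0.196) and Rhox9 (0.994 ± 0.353 FPKM) came last and overlapped each other.

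In P0 testes Rhox8 stood highest, at 107.8 ± 7.81 FPKM in WT (SD, n = 2). Rhox10 (5.99 ± 0.615) and Rhox5 (3.48 ± 0.962 FPKM) came next and did not overlap. Rhox13 was at 1.65 ± 0.502, Rhox1 at 1.45 ± 1.21 and Rhox9 at 1.29 ± 0.350 FPKM, and these 3 overlapped each other. Rhox6 lay lower, at 0.775 ± 0.241 FPKM, and overlapped Rhox1. Rhox11 had 0 fragments in 9 of the 11 P0 libraries and 1 fragment in each of the other two. The 2 tables were normalised separately and differ in tissue and read type, so the levels of a gene at L/Z and at P0 are set side by side and were not tested against each other.

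**Figure D1:**
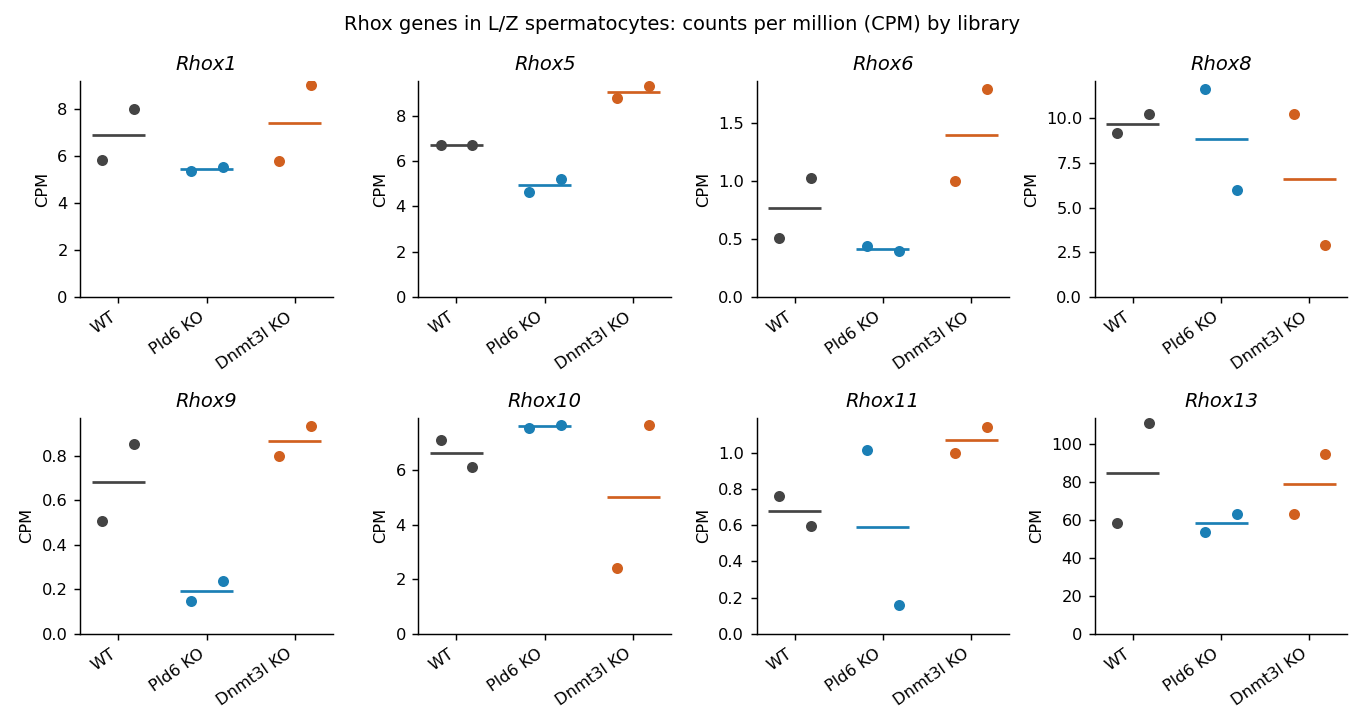
Level of each Rhox gene in L/Z spermatocytes, in CPM on a linear axis from 0. Points are libraries (2 per genotype) and bars are group means. Rhox13 lies between 53.5 and 111.1 CPM in all genotypes, and the Dnmt3l KO libraries of Rhox5 lie above the other 4.

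Rhox13, the most abundant of the germ cell members at L/Z, had 58.6 and 111.1 CPM in the WT libraries, 53.5 and 62.9 CPM in the Pld6 KO libraries and 63.0 and 94.8 CPM in the Dnmt3l KO libraries. The WT pair spanned both Dnmt3l KO values and 1 of the Pld6 KO values. The log2 fold change was -0.54 ± 0.31 (SE) in Pld6 KO (edgeR, FDR = 0.606) and -0.10 ± 0.31 in Dnmt3l KO (FDR = 0.864). Without WT replicate 2, the library with the highest level, the Dnmt3l KO value became 0.44.

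Rhox10, the other gene best known from germ cells, had 7.11 and 6.12 CPM in WT and 7.56 and 7.65 in Pld6 KO. In Dnmt3l KO it had 2.40 CPM in replicate 1, from 12 fragments, and 7.66 in replicate 2, which was level with Pld6 KO. Replicate 1, the shallowest L/Z library, lay below the other 5, and the log2 fold change over WT was -0.32 ± 0.48 (edgeR, FDR = 0.700) and 0.19 without this library.

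Rhox5 encodes the founding member of the family, and its loss is known to increase germ cell death in the testis. Its WT libraries had 6.69 and 6.72 CPM, its Pld6 KO libraries 4.65 and 5.20, and its Dnmt3l KO libraries 8.80 and 9.30. The 3 genotypes did not overlap, with Pld6 KO lowest and Dnmt3l KO highest. Against WT, neither difference passed the test, with log2 fold changes of -0.44 ± 0.35 in Pld6 KO (edgeR, FDR = 0.720) and 0.44 ± 0.35 in Dnmt3l KO (FDR = 0.447). Between the mutants the log2 difference was 0.87 ± 0.36 (Dnmt3l KO over Pld6 KO, unadjusted p = 0.0323 and FDR = 0.246 by edgeR).

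Rhox6 and Rhox9 are neighbours in the cluster and closely related genes known from placenta and germ cells. For Rhox6, the WT libraries held 6 and 12 fragments, the Pld6 KO libraries 3 and 5, and the Dnmt3l KO libraries 5 and 25. For Rhox9, they held 6 and 10, 1 and 3, and 4 and 13 fragments in the same order. Scaled to depth, both had their lowest 2 libraries in Pld6 KO, at 0.394 and 0.436 CPM for Rhox6 and 0.145 and 0.237 for Rhox9. Between Dnmt3l KO and Pld6 KO the log2 difference was 1.80 ± 0.78 for Rhox6 and 2.06 ± 0.89 for Rhox9 (edgeR, FDR = 0.265 for each). At these counts neither difference passed the test, and fragments may have been shared between these related genes.

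Rhox8, the Sertoli cell gene, had 9.15 and 10.2 CPM in the WT pair, 11.6 and 5.99 in the Pld6 KO pair, and 10.2 and 2.93 in the Dnmt3l KO pair. The lowest value belonged to Dnmt3l KO replicate 2, which also had the lowest summed level of the 15 Sertoli markers, 353.6 CPM against 708.9 to 1056 in the other 5 libraries. In that library Sox9, the transcription factor that defines Sertoli cells, was at 1.43 CPM, against 6.72 to 18.9 in the others. The part of these markers in the Rhox8 values was not tested. The log2 fold change in Dnmt3l KO was -0.64 ± 0.54 (edgeR, FDR = 0.474), and it became 0.075 without replicate 2.

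The remaining 2 members differed by less than the test could call. Rhox1 had 5.84 and 7.99 CPM in the WT libraries, 5.38 and 5.52 in the Pld6 KO libraries, and 5.80 and 9.02 in the Dnmt3l KO libraries. The Pld6 KO pair lay below the other 4 libraries. Rhox11 had 9 and 7 fragments in the WT libraries, 7 and 2 in the Pld6 KO libraries, and 5 and 16 in the Dnmt3l KO libraries. Its levels, 0.158 to 1.14 CPM, spread widely within Pld6 KO, and the Dnmt3l KO pair lay above the WT pair. The edgeR FDR against WT lay between 0.636 and 0.917 for both genes and both mutants.

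As a group, 0 of the 8 genes were called (FDR under 0.05 and a change over 2-fold) in Pld6 KO against WT, where 0.225% of all 14662 genes tested were called. The median log2 fold change of the 8 was -0.41, with 7 below 0, and the median of all genes was 0.00. In Dnmt3l KO against WT, 0 of 8 were called against 5.47% of all genes, and the median was 0.24 against -0.04 for all genes, with 5 genes above 0. Between Dnmt3l KO and Pld6 KO, 0 of 8 were called against 0.0477% of all genes, and the median was 0.67 against 0.00. At an unadjusted p under 0.05 by edgeR the counts were 0, 0 and 3 of 8, where 9.17%, 26.7% and 17.5% of all genes lay under it. The 3 genes were Rhox5, Rhox6 and Rhox9. The Wald test of DESeq2 called 0 of 8 in each of these comparisons, where it called 90, 994 and 355 of all genes. With it, 0 of 8 lay under an unadjusted p of 0.05.

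**Figure D2:**
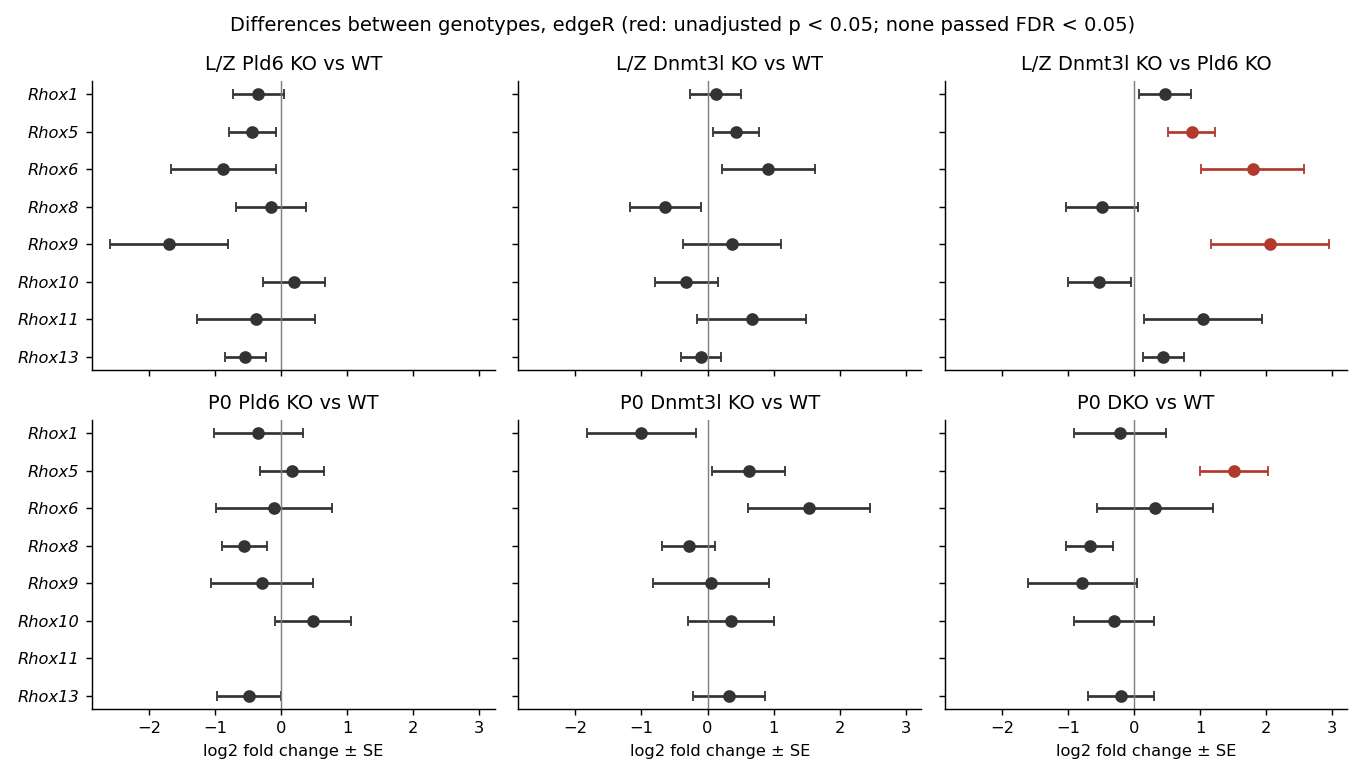
Log2 fold change of each Rhox gene (points) with its standard error (bars) in 6 comparisons, from edgeR. Rhox11 was too low to test at P0. Values under an unadjusted p of 0.05 are red (Rhox5, Rhox6 and Rhox9 between the L/Z mutants, and Rhox5 in P0 DKO), and no gene passed an FDR of 0.05.

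In P0 testes Rhox8, the member of highest level there, had 120.9 and 106.4 CPM in WT. The 4 Pld6 KO libraries had 104.0, 54.7, 97.3 and 53.1 CPM, the 2 Dnmt3l KO libraries 134.5 and 52.1, and the 3 DKO libraries 54.3, 83.4 and 75.8. All Pld6 KO and DKO libraries lay below both WT libraries, while the Dnmt3l KO pair fell on either side. The log2 fold change over WT was -0.56 ± 0.34 for Pld6 KO (edgeR, FDR = 0.963), -0.67 ± 0.36 for DKO (FDR = 0.682) and -0.28 ± 0.40 for Dnmt3l KO (FDR = 0.773), and none passed the test. Over both Dnmt3l backgrounds, the average effect of Pld6 loss was -0.47 ± 0.25 (edgeR, FDR = 0.449). It was -0.051 without the high Dnmt3l KO library, replicate 1.

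The Sertoli markers were in a different order. They summed to 6721 and 6779 CPM in the WT libraries and to less in every mutant library, with 5614 to 5822 CPM for Pld6 KO, 6187 and 4827 for Dnmt3l KO and 4474 to 5569 for DKO. All 15 were detected in each P0 library. Within Pld6 KO the sum, most of which came from Clu, Ctsl and Inha, spanned 5614 to 5822 CPM, but single markers varied. Fshr, the receptor for follicle-stimulating hormone, was at 38.5, 29.9, 44.5 and 27.4 CPM in replicates 1 to 4, and Cldn11, a tight junction gene, at 24.9, 17.6, 31.6 and 20.4 CPM. Both were higher in replicates 1 and 3, as Rhox8 was, whereas Amh was at 192.2, 390.2, 403.2 and 350.4 CPM. The part of the markers in the Rhox8 differences was not tested.

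**Figure D3:**
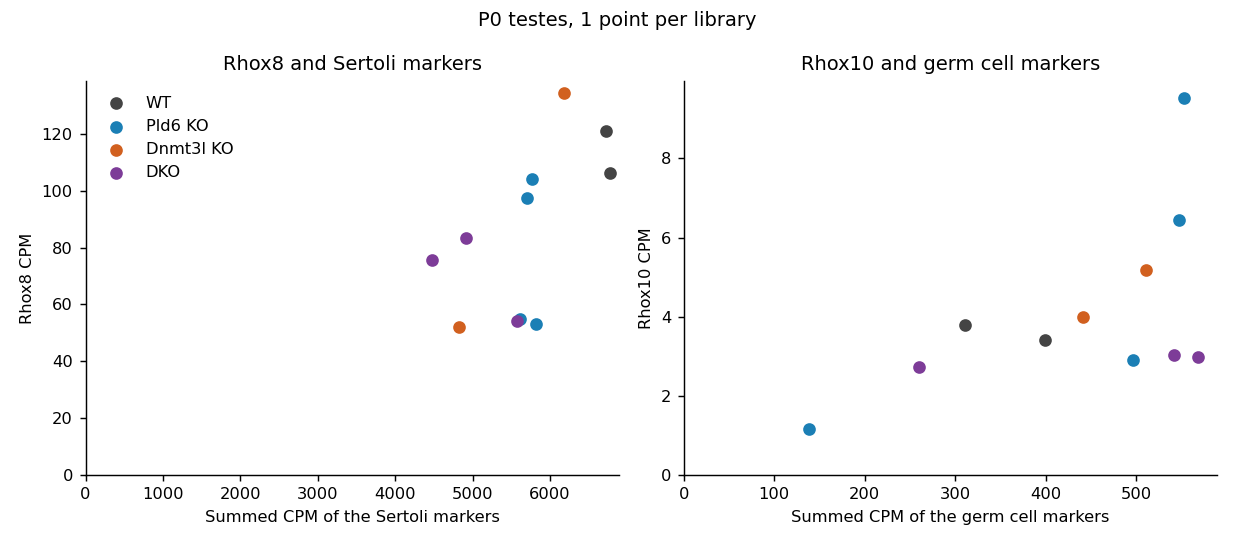
P0 testes, 1 point per library. Left, Rhox8 CPM against the summed CPM of 15 Sertoli markers; right, Rhox10 CPM against the summed CPM of 12 germ cell markers. Pld6 KO libraries span 53.1 to 104.0 CPM of Rhox8 at marker sums of 5614 to 5822 CPM, which are carried by a few abundant genes. The library lowest in Rhox10 (1.16 CPM) is also lowest in germ cell markers (138.4 CPM). The library highest in germ cell markers (568.3 CPM, DKO replicate 1) has Rhox10 at 2.99 CPM, below both WT libraries.

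Rhox5 was the member whose DKO libraries stood apart from WT by the most. It had 2.72 and 1.76 CPM in the WT libraries and 1.24, 3.02, 2.40 and 3.42 in the Pld6 KO libraries. The Dnmt3l KO libraries had 4.998 and 1.91 CPM, and the DKO libraries 4.05, 6.75 and 8.30. The DKO libraries, with 38, 89 and 198 fragments, all lay above the 6 WT and Pld6 KO libraries and overlapped Dnmt3l KO. The log2 fold change in DKO was 1.52 ± 0.51, with an unadjusted p of 0.0103 and FDR = 0.447 (edgeR), and it was 1.75 without DKO replicate 1, the library richer in Rn45s. In Dnmt3l KO it was 0.62 ± 0.55 (edgeR, FDR = 0.631), and it became -0.23 without replicate 1. Averaged over both Pld6 backgrounds, Dnmt3l loss gave 0.99 ± 0.34 (edgeR, unadjusted p = 0.0124, FDR = 0.447), and Pld6 loss averaged over both Dnmt3l backgrounds gave 0.53 ± 0.35 (FDR = 0.535). Without Dnmt3l KO replicate 1 these averages were 0.56 and 0.95. This library also stood apart in the late germ cell gene Ldhc, with 65.7 CPM against at most 2.08 in the other 10 P0 libraries. Its sum of L/Z spermatocyte markers was 251.3 CPM against 61.3 to 160.8. Its sums of the 12 germ cell and 9 spermatogonia markers, 510.8 and 145.3 CPM, lay within the range of the other libraries. The part of the Ldhc and L/Z marker differences in its Rhox5 and Rhox8 levels was not tested. Of the 4 genes listed as downstream of Rhox5, only Unc5c, a netrin receptor gene that Rhox5 is known to repress in Sertoli cells, was high enough to test at P0, and none was at L/Z. Its level was 13.1 and 12.01 CPM in WT and 13.5, 21.2 and 17.2 in DKO, a log2 fold change of 0.47 ± 0.35 (edgeR, FDR = 0.788).

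Rhox10 varied widely within Pld6 KO. The WT libraries had 3.40 and 3.78 CPM, the Dnmt3l KO libraries 5.17 and 3.99, and the DKO libraries 2.99, 2.73 and 3.02. The 4 Pld6 KO libraries had 1.16, 9.54, 2.91 and 6.44 CPM, so this group held both the lowest and the highest values of all 11 libraries. The summed level of 12 germ cell markers in the same 4 libraries was 138.4, 553.0, 496.1 and 547.4 CPM, and Dnmt3l RNA was at 0.496, 10.7, 2.57 and 14.6 CPM. Within Pld6 KO, replicate 1 was lowest and replicates 2 and 4 were highest in all of these measures. Across genotypes the order differed: DKO replicate 1 had the highest marker sum of the 11 libraries, 568.3 CPM, with Rhox10 at 2.99 CPM. The part of the germ cell markers in the Rhox10 values was not tested. The log2 fold change in Pld6 KO was 0.48 ± 0.57 (edgeR, FDR = 0.971), and it was -0.059 without replicate 2.

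The other P0 members were low. Rhox6 had 0.680 and 0.420 CPM in WT and 1.75 and 1.47 in Dnmt3l KO, from 8, 5, 20 and 17 fragments. The Dnmt3l KO pair lay above all 9 other libraries, of which the highest, a Pld6 KO library, had 1.21 CPM. The log2 fold change of 1.54 ± 0.92 did not pass the test (edgeR, FDR = 0.486). In DKO, which also lacks Dnmt3l, it had 0.533, 0.379 and 1.05 CPM. Rhox13 (0.826 to 3.07 CPM) and Rhox1 (0.379 to 1.70 CPM) overlapped WT in each mutant. Rhox9 ranged from 0.171 to 1.71 CPM, and its DKO libraries, at 0.320, 0.758 and 0.503 CPM, lay just below the WT libraries, at 0.765 and 1.09. With 2 to 51 fragments per library, only large changes of these 3 genes could have been detected.

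**Figure D4:**
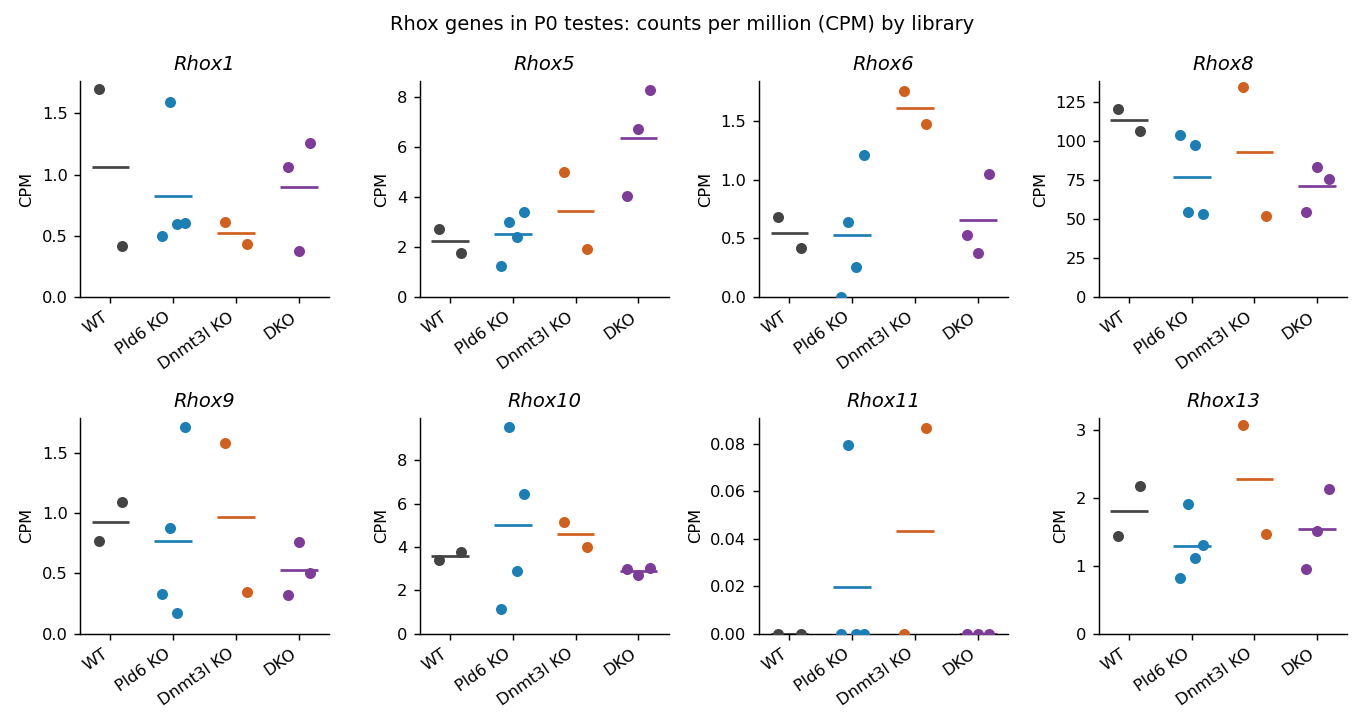
Level of each Rhox gene in P0 testes, in CPM on a linear axis from 0. Points are libraries (WT 2, Pld6 KO 4, Dnmt3l KO 2, DKO 3) and bars are group means. Rhox8 lies at 52.1 to 134.5 CPM, the 3 DKO libraries of Rhox5 lie above WT and Pld6 KO, and Rhox11 has 1 fragment in 2 libraries and 0 in the rest.

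At P0, 7 of the 8 genes passed the filter on low counts, all but Rhox11. By edgeR, 0 of 7 were called in Pld6 KO, Dnmt3l KO and DKO against WT, where 0.00629%, 0% and 0.0126% of 15901 genes were called. For the average effects of Dnmt3l loss and of Pld6 loss, 0 of 7 were called as well, against 0% and 0.044% of all genes. Calls were thus almost absent from the whole P0 table, and the members' zeros say little about them. At an unadjusted p under 0.05 there were 0, 0, 1, 1 and 0 of 7 in these 5 comparisons, the gene being Rhox5 both times. The shares of all genes were 5.06%, 12.9%, 7.97%, 9.6% and 12.7%. DESeq2 called 0 of 7 in each, while it called 14, 71, 62, 29 and 73 of all genes, and Rhox5 again was the gene that lay under an unadjusted p of 0.05, in the same 2 comparisons. The median log2 fold change of the 7 over WT was -0.30 for Pld6 KO, 0.32 for Dnmt3l KO and -0.21 for DKO, against medians of all genes between 0.01 and 0.03.

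The effect of each mutation at L/Z was also tested against its effect at P0 in a single model. For Pld6 KO, 0 of 8 genes differed at an FDR under 0.05, against 0.0121% of 16547 genes, and for Dnmt3l KO 0 of 8 differed, against 0.665%. By edgeR 0 of 8 lay under an unadjusted p of 0.05 in either test, where 9.52% and 17.2% of all genes did. DESeq2 called 0 of 8 as well, against 45 and 699 of all genes. The smallest FDR of a member was 0.748 for Pld6 KO and 0.561 for Dnmt3l KO. Stage cannot be told apart here from tissue or from read type.

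Outside the 8, the Rhox gene that was called was a tandem copy. Rhox3a, next to Rhox2a near the start of the cluster, had 7 and 12 fragments (0.593 and 1.02 CPM) in the L/Z WT libraries. It had 7 and 14 fragments (1.02 and 1.10 CPM) in the Pld6 KO libraries, and 31 and 68 (6.20 and 4.87 CPM) in the Dnmt3l KO libraries. Both Dnmt3l KO libraries lay above the other 4, and the log2 fold change over WT was 2.75 ± 0.57 (edgeR, FDR = 0.0230). Against Pld6 KO it was 2.35 ± 0.56 (FDR = 0.124). Rhox3f was 2.54 ± 0.70 higher in Dnmt3l KO than in WT on the log2 scale (edgeR, FDR = 0.0505), and Rhox3c, Rhox3g and Rhox3h gave 2.20, 2.07 and 2.49 (FDR of 0.124, 0.154 and 0.0845). Of the 14 other Rhox genes tested at L/Z, Rhox3a was thus the 1 called, where 5.47% of all genes were, and 5, all Rhox3 copies, lay under an unadjusted p of 0.05, where 26.7% of all genes did. The calls of the other copies depended on the fit: 2 Rhox3 copies (Rhox3a and Rhox3f) were called with the replicate number as a block, 5 with that block crossed in Dnmt3l KO, and 3 (with Rhox3h) when WT and Dnmt3l KO were fitted alone. Without WT replicate 1 or either Dnmt3l KO library Rhox3a was no longer called, with an FDR of 0.118, 0.159 and 0.0568.

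These genes are tandem duplicates, so fragments may have been divided among them. How alike their transcripts are was not measured here. The promoter windows of the Rhox3 pairs were 20.8% to 100% identical, compared base by base with no gap or shift allowed. Copies whose windows are offset score low on this measure. The windows of Rhox3f and Rhox3g, at 24.8%, share a long run of bases at different positions. The sum over the copies does not depend on how fragments were divided among them. The 6 Rhox3 genes together had 1.36 and 4.93 CPM in the L/Z WT libraries, 3.05 and 5.28 in the Pld6 KO libraries, and 19.8 and 15.8 in the Dnmt3l KO libraries. The Dnmt3l KO mean was 5.67 times the WT mean, with no overlap. It was 3.61 times without WT replicate 1, which was rich in Rn45s, and 13.1 times without WT replicate 2. The 8 Rhox2 copies (45.2 ± 14.4 CPM in WT and 46.1 ± 8.13 in Dnmt3l KO, SD, n = 2) and the 7 Rhox4 copies (2.84 ± 0.907 and 2.28 ± 0.115 CPM) overlapped between these genotypes. In P0 testes the Rhox3 sum was 2.12 and 1.68 CPM for WT, 1.23 and 1.39 for Dnmt3l KO and 0.834 to 1.49 for DKO, so that no Dnmt3l mutant library lay above WT. At P0 most Rhox4 fragments came from Rhox4a, which had 5.10 and 5.12 CPM in WT and 1.07, 10.1, 2.23 and 9.06 in Pld6 KO, and thus had its low and high libraries where Rhox10 did. The effect of Dnmt3l KO on Rhox3a at L/Z minus that at P0 was 3.80 ± 1.26 on the log2 scale (edgeR, FDR = 0.153).

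**Figure D5:**
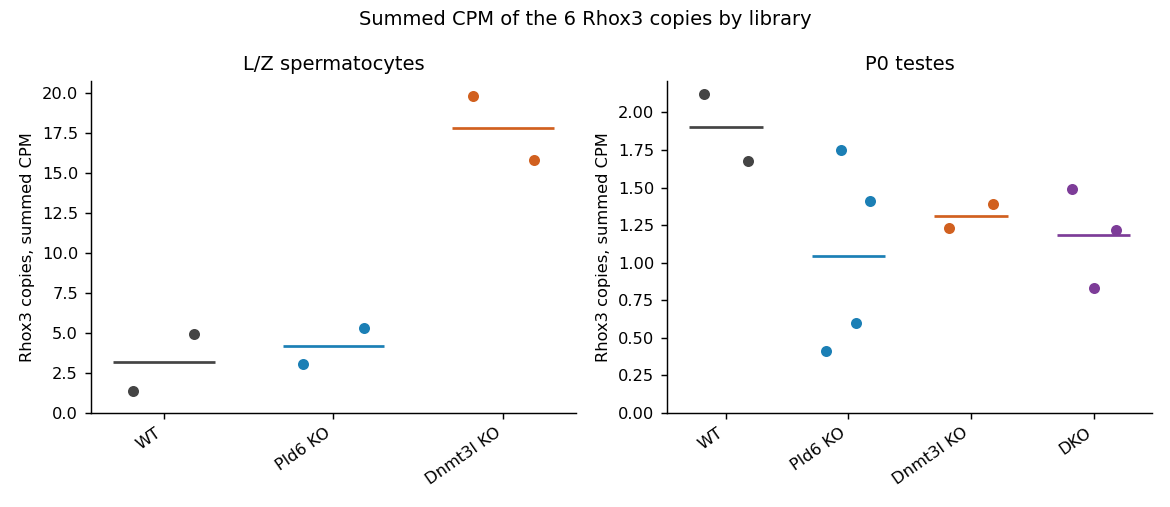
Summed CPM of the 6 Rhox3 copies by library, on linear axes from 0 that differ between the panels. Points are libraries and bars are group means. In L/Z spermatocytes (left) the Dnmt3l KO libraries reach 15.8 and 19.8 CPM against at most 5.28 in the others, and in P0 testes (right) all mutants lie at or below WT except 1 Pld6 KO library within the WT range.

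Other Rhox genes with at least 10 fragments in some library were 17 at L/Z (Rhox2a to Rhox2h, Rhox3a, Rhox3c, Rhox3f, Rhox3g, Rhox3h, Rhox4a, Rhox4e, Rhox4g and Rhox7) and 9 at P0 (Rhox2a, Rhox2b, Rhox3a, Rhox3e, Rhox4a, Rhox4e, Rhox4f, Rhox4g and Rhox7). Rhox7, which RefSeq names Rhox7a, was the most abundant of them at L/Z, at 10.8 to 23.7 CPM. At P0, 0 of the 7 tested were called in any of the 5 comparisons by edgeR, where 0% to 0.044% of all genes were. Under an unadjusted p of 0.05 by edgeR lay 0 of the 7, against 5.06% to 12.9% of all genes.

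The genes on either side of the cluster were examined in the same fits. They are Nkap, Akap14, Ndufa1, Rnf113a1 and Gm9 before it, and Zbtb33, Tmem255a, Atp1b4, Lamp2 and Cul4b after it. The L/Z fit covered 8 of the 10 and the P0 fit 7, and 0 were called in any comparison by edgeR. Of all genes, 0% to 5.47% were called in these comparisons, so zeros among so few genes say little about them. In L/Z Dnmt3l KO against WT the log2 fold changes of the flanking genes ranged from -1.29 for Gm9 to 0.87. Their median was 0.42, against -0.04 for all genes.

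Among 18 regulators of DNA methylation, chromatin and Rhox promoters, 1 was called higher in L/Z Dnmt3l KO than in WT and 1 lower, where 5.47% of all genes were called. Ezh2, a histone H3 lysine methyltransferase, was the former, with a log2 fold change of 1.26 ± 0.27 (edgeR, FDR = 0.0234), and Dnmt3l itself was the latter. Of 16 germline genes whose promoters are known to be silenced by methylation, 2 were called higher in L/Z Dnmt3l KO and 0 lower, also against 5.47% of all genes. These were Brdt, a bromodomain gene of the testis (1.71 ± 0.42 on the log2 scale, FDR = 0.0351), and Hormad1, a meiotic chromosome axis gene (1.66 ± 0.39, FDR = 0.0317, both by edgeR). The median of the 16 was 0.70 against -0.04 for all genes. In the same comparison 7 of 10 L/Z spermatocyte markers, Hormad1 among them, were called higher, and their summed level was 7652 and 8287 CPM in Dnmt3l KO against 2296 to 4644 in the other 4 libraries. The part of these markers in the differences of Rhox3a, Brdt and Hormad1 was not tested. No gene of the regulator and germline lists was called by edgeR in any other comparison.

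The other cell type markers were examined in the same fits. Of 9 markers of spermatogonia, Sohlh1 alone was called, lower in L/Z Dnmt3l KO than in WT. Of 15 Sertoli markers Nr5a1 alone was called, also lower there, where 5.47% of all genes were called. Of the 6 Leydig cell markers, Hsd3b1 was called for a Dnmt3l KO effect that differed between the stages, where 0.665% of all genes were called. The 6 Leydig cell markers had a summed level of 6.60 to 18.7 CPM at L/Z and 1264 to 3608 CPM at P0. The 7 blood and macrophage markers had 4.67 to 31.6 and 69.1 to 262.5 CPM, and the 9 late germ cell markers 7.41 to 39.9 and 2.80 to 70.2 CPM. The value of 70.2 CPM belonged to Dnmt3l KO replicate 1 and came mostly from Ldhc, and the other P0 libraries had at most 15.3 CPM. The 12 germ cell markers summed to 3056 to 4851 CPM at L/Z and 138.4 to 568.3 CPM at P0, and the 9 spermatogonia markers to 775.2 to 1507 and 111.7 to 330.8 CPM.

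For the 3 most abundant members at P0, the genes with the most similar pattern over the 11 libraries were sought among those with a mean of at least 50 counts, by Pearson's r of log2 CPM. Rhox8 was followed most closely by Sh3bgr (r = 0.95, Spearman's rho = 0.90), Ppa1 (0.93 and 0.85) and Srpk1 (0.93 and 0.93). Rhox5 was followed by Slc25a26 (0.90 and 0.91), Rimklb (0.88 and 0.87) and Akap5 (0.87 and 0.80), and Rhox10 by Fndc3c1 (0.92 and 0.95), Nlrp4f (0.90 and 0.75) and Dppa4 (0.89 and 0.65). The 11 libraries share their genotype groups and differ in cell composition, and these values describe the libraries only.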

How the data were processed

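Polyadenylated RNA was sequenced with strand information from 6 L/Z spermatocyte and 11 P0 testis libraries. Per the labels and the methods of the study, reads were aligned to mm10 with TopHat2 and quantified for RefSeq genes with Cuffdiff, with no further version given in the sources used here. The deposited tables give estimated counts, unscaled, for each gene and library, and the FPKM the authors obtained from Cuffdiff. Cuffdiff divides fragments among similar transcripts, so values of the tandem copies are uncertain. Replicates, labelled biological, are numbered from 0 in the tables and from 1 in the labels, and the lower was taken as the lower. Of 23980 genes listed, 6 (L/Z) and 2 (P0) with a status other than OK were left out.

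Estimated counts were rounded and tested with edgeR 4.0.16 in R 4.3.3 (filterByExpr, TMM, quasi-likelihood F-tests) with all groups of a stage in 1 fit, and the 14 libraries of shared genotypes for differences between stages. Genes were called at a Benjamini-Hochberg adjusted p (FDR) under 0.05 and, within a stage, a change over 2-fold. The fit was tested on simulated data, with large changes in genes of higher counts only. That test does not cover members with few fragments. CPM are TMM-scaled. Likeness used log2(CPM + 0.5). Alternatives used DESeq2 1.42.0 and limma 3.58.1, and are given at the end. Named were the 8 members, Rhox genes with at least 10 counts, 5 flanking genes per side and genes called from 3 lists (regulators, germline genes with methylated promoters, genes downstream of Rhox5). Cell type markers were 7 further lists. The members and lists were chosen with earlier results of these data known. Figures were drawn with matplotlib 3.10.9.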

Additional observations from a re-analysis of the deposited data

Results flagged for a closer look

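Of the members, 1 value stood apart within the only group large enough to be examined, the 4 Pld6 KO libraries at P0. Rhox1 reached 1.59 CPM in replicate 2, from 20 fragments, against 0.496, 0.599 and 0.604 CPM in the other 3, and its gap exceeded Dixon's 95% critical value. This was looked for in 7 genes, and chance flags about 1 in 20 groups. No member's effect differed between stages by the edgeR test.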

How the results depend on the processing

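Over the alternatives, 151 counts of called members were recomputed and all were 0, as in the report. The smallest FDR of any member was 0.122, in P0 DKO against WT with only those groups fitted. The alternatives were DESeq2 size factors or Wald test, no filter on low counts, no fold threshold, limma on log2(FPKM + 1) or log2(FPKM + 0.1), the compared groups alone, a factor for the 2 L/Z libraries rich in Rn45s, a replicate block, and leaving out each replicate (0 to 0 members called). An offset for GC content and length (loess, span 0.3) and a crossed replicate block at L/Z were chosen after seeing the data. Same-numbered samples did not deviate together throughout (r of 0.48 for L/Z WT with Pld6 KO, -0.14 for WT with Dnmt3l KO, and -0.33 to 0.27 at P0), so the numbers were not taken to pair samples, and 0 members were called with the replicate block, crossed or not. Of the Rhox3 copies in L/Z Dnmt3l KO, 1 was called in the report, 2 with the replicate block and 5 with it crossed.

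Directions that turned were those of values that had not passed the test. Leaving out each replicate moved Rhox8 in L/Z Dnmt3l KO between -1.74 and 0.075 (Dnmt3l KO replicates 1 and 2), and Rhox13 there between -0.49 (WT replicate 1) and 0.44 (WT replicate 2), with 0.15 without Dnmt3l KO replicate 1. Rhox10 there moved between -1.46 and 0.19 (without Dnmt3l KO replicate 2 and 1). The GC and length offset gave 0.29 for Rhox13. At P0 leaving out replicates moved Rhox5 in Dnmt3l KO between -0.23 and 1.13, Rhox8 in Dnmt3l KO between -1.13 and 0.22, and Rhox10 in Pld6 KO between -0.059 and 0.81. The median of the members turned to -0.018 in L/Z Dnmt3l KO without WT replicate 1, to 0.25 in P0 Pld6 KO without WT replicate 1 and to -0.30 in P0 Dnmt3l KO without Dnmt3l KO replicate 1. Rhox5 in P0 DKO stayed between 1.22 and 1.83 over 14 alternatives, and Rhox3a in L/Z Dnmt3l KO between 1.96 and 3.19 over 15. Most groups had 2 libraries, and several members had under 30 fragments per library, which limits the precision of their values. The causes of these shifts were not tested.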
